A study of Drosophila melanogaster with 12 samples.

Results

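The redox control genes examined here are 9 named genes of the Drosophila melanogaster table, picked by symbol out of 8802 genes measured. They are the transcription factor gene cnc, its inhibitor Keap1 and its dimerization partner maf-S, the glutathione synthesis genes Gclc and Gclm, the superoxide dismutase genes Sod1 and Sod2, the catalase gene Cat and the thioredoxin reductase gene Trxr-1. All 9 were found and all 9 passed the filter on low counts. The study asked which genes the transcription factor Shavenbaby (Svb), a product of the ovo locus, controls in intestinal stem cells. RNA-seq counts per gene came from GFP-positive cells sorted from posterior midguts of virgin females. Each sample pooled a batch of more than 20 flies, kept at 29 °C for 6 days to switch on the transgenes and 9 days old at dissection.

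All 4 groups of 3 libraries carried esg-Gal4, UAS-GFP and tubGal80TS, the last a temperature-sensitive repressor of Gal4. The libraries labelled svb RNAi also carried UAS-SvbRNAi, the SvbACT libraries UAS-SvbACT::GFP, and the SvbREP libraries UAS-Svb3Kmut::GFP. The control flies came from a cross to Canton-S and had no further UAS transgene. Comparisons with control thus differ in the cross as well as in the Svb transgene, and the parts of these cannot be told apart. The labels call SvbACT and SvbREP constitutive forms. The esg-Gal4 driver is active in intestinal progenitors, which include enteroblasts besides stem cells. Each value is an average over the cells that were sorted. The header of every count column also holds the word Small, which was not interpreted here. In such bulk samples, fewer cells of a type and less RNA per cell cannot be told apart.

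Cnc is the fly counterpart of mammalian Nrf2. Keap1 holds the protein in check by presenting it for degradation, and when it is released Cnc pairs with a small Maf protein and switches on antioxidant genes, among them those of glutathione synthesis. In the fly midgut, reactive oxygen species promote stem cell division, and Cnc activity in the stem cells holds that division back. Much of this control acts on the protein, so transcript levels of cnc and Keap1 do not measure Cnc activity.

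Library totals ran from 4298998 to 5518895 counts with the svb RNAi label, 4361322 to 6036911 in SvbACT, 2965852 to 5786969 in SvbREP and 5557969 to 6575392 in control. The targeted gene ovo held 225, 206 and 209 counts in the libraries labelled svb RNAi, against 4, 64 and 3 in control (edgeR adjusted p = 0.000241), a direction opposite to that of a knockdown. Gene totals do not separate transgene from endogenous reads, so directions for these libraries rest on the label. ovo reached 2058 to 2268 CPM in SvbACT and 2086 to 2213 CPM in SvbREP, where CPM is the count scaled to library size, with TMM factors. Progenitor markers, 8 of the 10 listed, summed to at least 9591 CPM in every library and included esg and Dl. The gene hdc alone averaged 5320 to 6549 CPM by group. With the svb RNAi label 3 of the 8 were called lower than control (edgeR adjusted p under 0.05), against 13.7% of all genes tested. SvbACT had 0 such calls (5.23%) and SvbREP 1 (2.7%), and none was called higher. Dl averaged 533 CPM with the svb RNAi label and 958 CPM in control, while esg and N were nearly level between those groups. In SvbREP, esg averaged 1292 CPM, below its 2028 CPM in control, whereas Dl averaged 1179 CPM, above control. The part of progenitor composition in the levels of the 9 genes was not tested. The 12 enterocyte markers summed to between 353 and 823 CPM and the 12 enteroendocrine markers to between 347 and 3402 CPM. The highest enteroendocrine sums were 2840 and 3402 CPM in SvbREP replicates 1 and 2, whereas SvbREP replicate 3 had 543 CPM. Visceral muscle markers summed to at most 169 CPM and 4 of 6 hemocyte markers to at most 7.70 CPM.

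**Figure D1:**
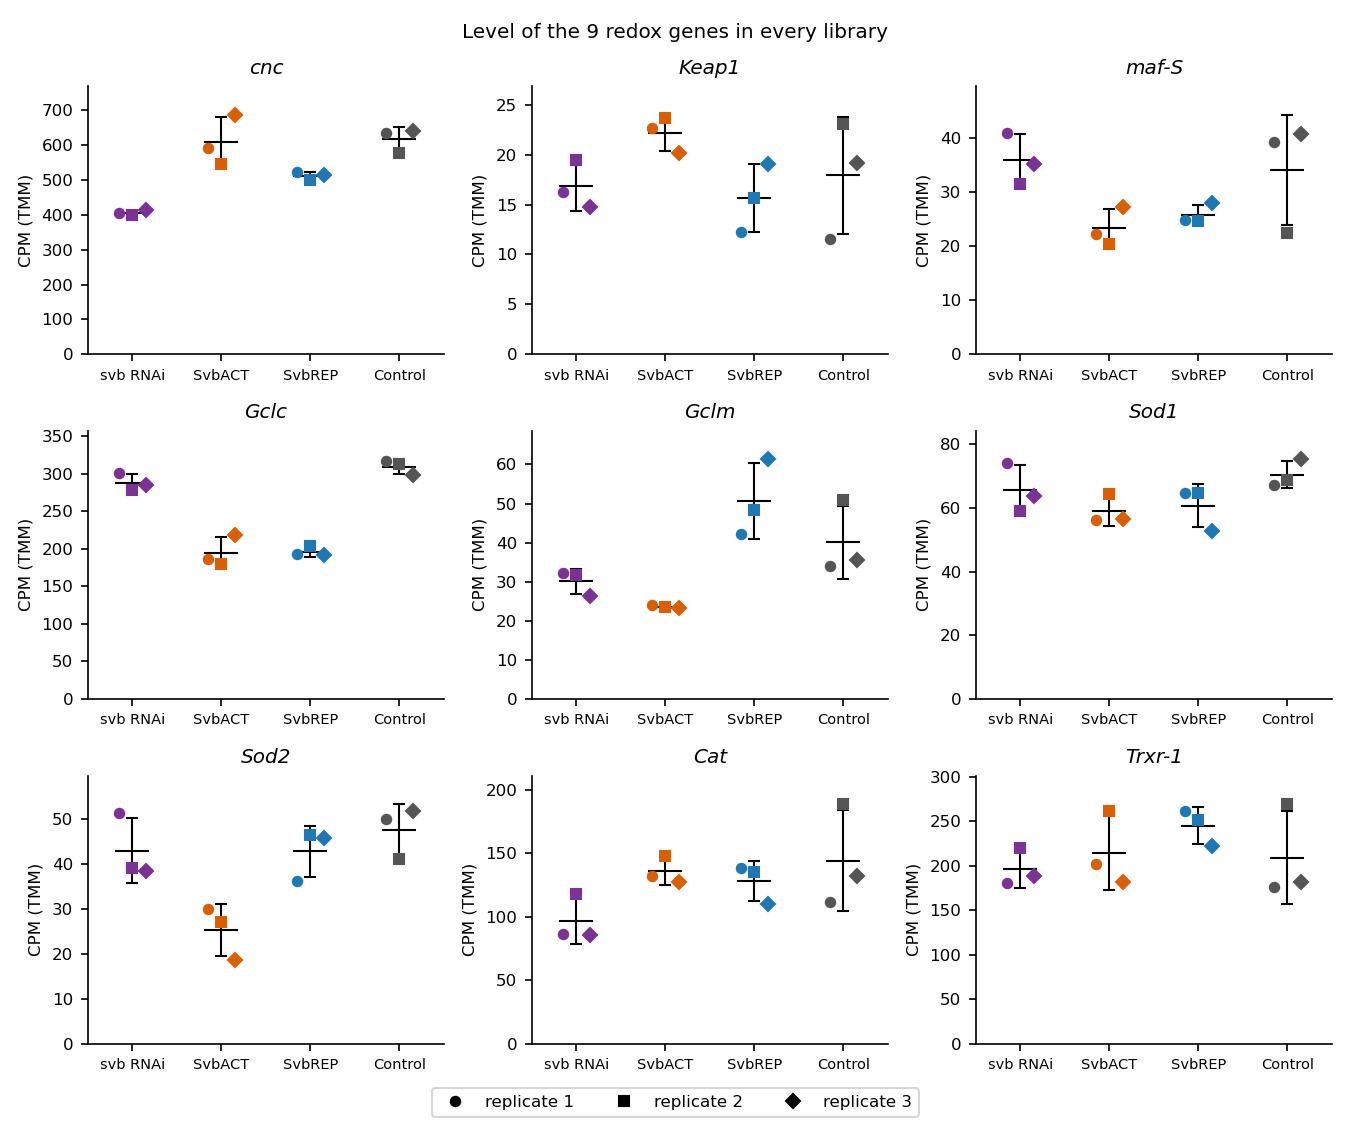
Level of each of the 9 redox genes in every library, in TMM-scaled CPM on linear axes that start at 0. Symbols are replicates, bars are mean ± SD of 3 libraries. Gclc is lower in SvbACT and SvbREP than in control, Sod2 and Gclm are low in SvbACT, and cnc is lowest in the libraries labelled svb RNAi.

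Against control, 1 to 3 of the 9 genes were called lower in each transgene group and 0 were called higher. Over all genes tested, 2.7% to 13.7% were called lower and 1.35% to 6.74% higher. At shares that small, 0 higher calls among 9 genes say little about that direction. Among the 4 groups, 4 of the 9 genes differed at an edgeR adjusted p-value under 0.05 (cnc, Gclc, Gclm and Sod2), where 28.8% of all 7992 genes tested did. In the libraries labelled svb RNAi, 2 of 9 were called against control, both lower (cnc and Cat), with 20.4% of all genes called, 6.74% higher and 13.7% lower. Members were thus called about as often there as genes in general. In SvbACT, 3 of 9 were called against control, all lower (Gclc, Gclm and Sod2), with 9.15% of all genes called, 3.92% higher and 5.23% lower. In SvbREP only Gclc was called against control, lower, with 4.05% of all genes called, 1.35% higher and 2.7% lower. Between SvbACT and SvbREP, Gclm and Sod2 were called, both lower in SvbACT, with 13.1% of all genes called, 6.51% higher and 6.63% lower. The comparisons with control share the control libraries. In 2 contrasts added after the data were seen, 3 of 9 were called in SvbACT against the libraries labelled svb RNAi (1 higher, 2 lower, with 17.4% of all genes called, 12% higher and 5.41% lower) and 3 of 9 in SvbREP against them (2 higher, 1 lower, with 22.8% called, 14% higher and 8.85% lower). For 2 of 9 members the svb RNAi and control libraries did not overlap (35.6% of all genes). That held for 4 members in SvbACT against control (25%), 3 in SvbREP against control (19.3%), 4 in SvbACT against SvbREP (27.9%), 7 in SvbACT against svb RNAi (34.2%) and 5 in SvbREP against svb RNAi (37.6%).

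The median log2 fold change of the 9 genes against control was -0.10 for svb RNAi, -0.25 for SvbACT and -0.18 for SvbREP. Over all genes tested these medians were 0.02, 0.01 and -0.00. When libraries were scaled by their totals alone, the median over all genes in the svb RNAi comparison moved to 0.15, and the calls there split into 922 higher and 900 lower in place of 539 higher and 1094 lower. Against svb RNAi that scaling gave 804 higher and 736 lower in SvbACT, in place of 959 and 432, and 955 higher and 984 lower in SvbREP, in place of 1115 and 707. In the authors' deposited table, which gives 5 comparisons and so 45 values for these genes, 11 were called, and the same 11 were called here in the same direction.

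**Figure D2:**
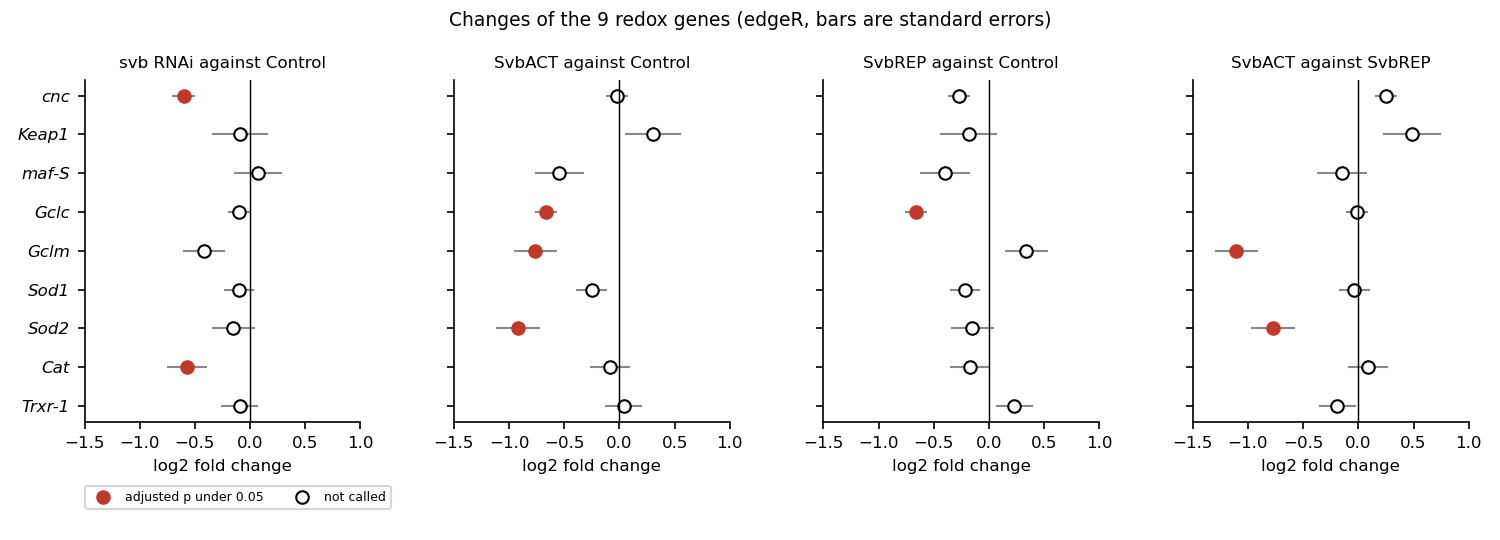
Log2 fold change of each redox gene, first group over second, in 4 comparisons. Bars are standard errors of the edgeR fit, filled points have an adjusted p-value under 0.05. The filled points are cnc and Cat for svb RNAi, Gclc, Gclm and Sod2 for SvbACT, Gclc for SvbREP, and Gclm and Sod2 between the overexpressed forms, all below 0.

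Of the 3 regulators, only cnc was called. The gene cnc (FBgn0262975) lies on chromosome 3R at 23185580 to 23226711 on the minus strand of assembly BDGP6.54, whose coordinates are those of dm6. Its counts cover all isoforms, among them the long form that corresponds to Nrf2. It stood at 406, 401 and 413 CPM in the libraries labelled svb RNAi, at 592, 545 and 688 CPM in SvbACT, at 522, 499 and 514 CPM in SvbREP and at 636, 577 and 640 CPM in control. All 3 libraries labelled svb RNAi lay below every other library, and the SvbACT libraries spanned the range of control. The fall in the libraries labelled svb RNAi was 0.60 on the log2 scale (SE 0.101, edgeR adjusted p = 0.000416), or 34.2%, and it was called under all 19 alternatives.

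In SvbREP, all 3 cnc values lay below all 3 control values, but the difference did not pass the threshold (log2 fold change -0.27, SE 0.101, edgeR adjusted p = 0.165). In rising order the group means were 406 CPM for svb RNAi, 512 for SvbREP, 608 for SvbACT and 617 for control. Of the neighbours in that order, SvbREP was higher than svb RNAi (log2 fold change 0.33, edgeR adjusted p = 0.0274). That call was lost when any of the 3 libraries labelled svb RNAi or SvbREP replicate 1 or 3 was left out (edgeR adjusted p = 0.0538 to 0.0648), and with libraries scaled by their totals (0.0601). SvbACT and SvbREP did not pass (log2 fold change 0.25, SE 0.101, edgeR adjusted p = 0.132), and SvbACT was at -0.02 against control (SE 0.101, edgeR adjusted p = 0.954). SvbACT exceeded the libraries labelled svb RNAi by 0.58 (SE 0.102, edgeR adjusted p = 0.000630).

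Keap1 (FBgn0038475, chromosome 3R, 17073942 to 17079945), the substrate adaptor that presents Cnc for degradation, was the least abundant member. It had 16.3, 19.5 and 14.7 CPM with the svb RNAi label, 22.7, 23.7 and 20.1 CPM in SvbACT, 12.2, 15.7 and 19.1 CPM in SvbREP and 11.6, 23.1 and 19.1 CPM in control. Control alone spanned nearly the whole range. Its largest difference was between SvbACT and SvbREP, where the libraries did not overlap, by 0.49 on the log2 scale (SE 0.259, edgeR adjusted p = 0.263).

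maf-S (FBgn0034534, chromosome 2R, 20640976 to 20641668) encodes the small Maf protein with which Cnc binds DNA. It was at 41.0, 31.5 and 35.3 CPM with the svb RNAi label, 22.2, 20.5 and 27.3 CPM in SvbACT, 24.8, 24.7 and 28.0 CPM in SvbREP and 39.4, 22.4 and 40.7 CPM in control. Control replicate 2 sat with the SvbACT and SvbREP libraries, apart from control replicates 1 and 3. SvbACT against control gave -0.55 (SE 0.222, edgeR adjusted p = 0.169), and -0.78 with an adjusted p of 0.0200 once control replicate 2 was left out. In SvbREP maf-S was at -0.40 against control (SE 0.223, edgeR adjusted p = 0.373). Against the libraries labelled svb RNAi, SvbACT was at -0.62 (edgeR adjusted p = 0.0720). The adjusted p was 0.0269 once replicate number entered as a block and 0.0241 with libraries scaled by their totals. It was 0.0369 with only the 2 groups fitted and 0.0263 without control replicate 2, and no other alternative called it.

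Because both genes are read in the same library, the ratio of maf-S to cnc counts does not depend on scaling. There were 10.1, 7.85 and 8.55 maf-S counts per 100 cnc counts with the svb RNAi label, 3.75, 3.76 and 3.97 in SvbACT, 4.75, 4.96 and 5.45 in SvbREP and 6.19, 3.88 and 6.36 in control. The svb RNAi values lay above all others, and the SvbACT values lay below the lowest of control apart from SvbACT replicate 3.

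The subunits of glutamate-cysteine ligase, the rate-limiting enzyme of glutathione synthesis, were both called lower in SvbACT against control, and Gclc alone in SvbREP. Gclc (FBgn0040319, chromosome X, 8102181 to 8116147, minus strand) encodes the catalytic subunit. Its level was 301, 279 and 285 CPM with the svb RNAi label, 187, 179 and 218 CPM in SvbACT, 192, 204 and 192 CPM in SvbREP and 317, 313 and 298 CPM in control. Every library of both overexpressing groups lay below every library of the other groups. Gclc fell by 0.67 on the log2 scale in SvbACT (SE 0.0991, edgeR adjusted p = 0.000356) and by 0.66 in SvbREP (SE 0.0995, edgeR adjusted p = 0.00104), a loss of 37.0% and 36.6%. Both calls held under all 19 alternatives, with log2 fold changes from -0.76 to -0.62 and from -0.68 to -0.61.

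SvbACT and SvbREP differed from each other in Gclc by only -0.01 (SE 0.0998, edgeR adjusted p = 0.965). In the libraries labelled svb RNAi, Gclc was at -0.10 against control (SE 0.0982, edgeR adjusted p = 0.553). Group means in rising order were 195 CPM for SvbACT, 196 for SvbREP, 288 for svb RNAi and 309 for control. The step from SvbREP to svb RNAi was called in the contrast of SvbREP with svb RNAi (log2 fold change -0.56, edgeR adjusted p = 0.000739), and the other neighbours did not pass the test.

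Gclm (FBgn0046114, chromosome 3R, 22685006 to 22686510, minus strand) encodes the modifier subunit, which raises the activity of the catalytic subunit. Its level was 32.2, 31.6 and 26.4 CPM with the svb RNAi label, 24.1, 23.5 and 23.3 CPM in SvbACT, 42.1, 48.4 and 61.3 CPM in SvbREP and 34.0, 50.9 and 35.5 CPM in control. The SvbACT libraries were the lowest of all and close together, and the SvbREP libraries overlapped control at its replicate 2. SvbACT was lower than SvbREP (log2 fold change -1.10, SE 0.197, edgeR adjusted p = 0.00124), a change of -53.5%, and the call held in all 19 alternatives. Counts behind these values were 103, 116 and 133 in SvbACT and 124, 176 and 350 in SvbREP.

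Against control, Gclm fell by 0.76 in SvbACT (SE 0.196, edgeR adjusted p = 0.0214), but the adjusted p was 0.0718, 0.0640, 0.0702 and 0.101 when SvbACT replicate 1, 2 or 3 or control replicate 2 was left out. In SvbREP, Gclm was at 0.34 against control (SE 0.192, edgeR adjusted p = 0.374). The libraries labelled svb RNAi all lay below control but missed the threshold (log2 fold change -0.42, SE 0.193, edgeR adjusted p = 0.157). SvbREP exceeded the libraries labelled svb RNAi (log2 fold change 0.76, edgeR adjusted p = 0.0104), with an adjusted p of 0.0551 without SvbREP replicate 3. The enteroendocrine marker sums of SvbREP were 2840, 3402 and 543 CPM in replicates 1, 2 and 3, and those of control were 409, 1123 and 381 CPM. Gclm was highest in SvbREP replicate 3, whose marker sum was the lowest of its group, and within control it was highest in replicate 2, whose sum was the highest. The part of enteroendocrine RNA in the Gclm levels was not tested.

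Within each library, Gclm counts per 100 Gclc counts were 10.7, 11.3 and 9.27 with the svb RNAi label, 12.9, 13.1 and 10.7 in SvbACT, 21.9, 23.7 and 31.9 in SvbREP and 10.7, 16.3 and 11.9 in control. All 3 SvbREP values exceeded all 9 others. The SvbACT values lay within the control range or next to its lower edge, since both subunits were lower there.

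**Figure D3:**
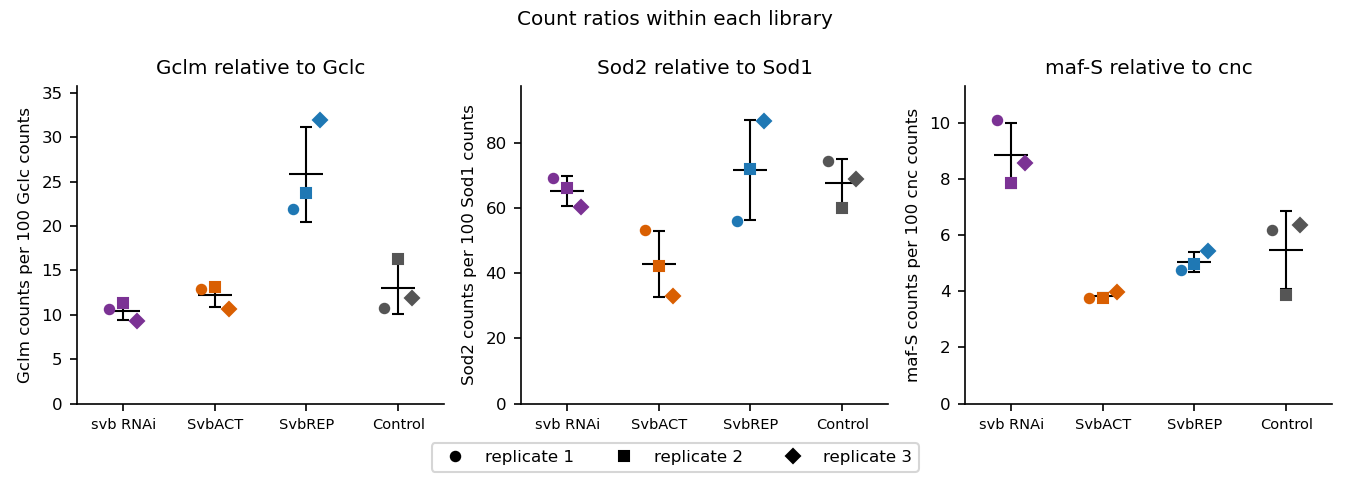
Ratios of counts of paired redox genes within each library: Gclm per 100 Gclc, Sod2 per 100 Sod1 and maf-S per 100 cnc counts, not corrected for gene length. Symbols are replicates, bars are mean ± SD of 3 libraries. The SvbREP libraries have the highest Gclm to Gclc ratios, from 21.9 to 31.9, the SvbACT libraries the lowest Sod2 to Sod1 ratios, from 33.1 to 53.1, and the svb RNAi libraries the highest maf-S to cnc ratios.

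Superoxide dismutases convert superoxide to hydrogen peroxide, Sod1 in the cytosol and Sod2 in the mitochondrial matrix, and only the mitochondrial gene was called. Sod2 (FBgn0010213, chromosome 2R, 16772785 to 16773915, minus strand) was at 51.4, 39.1 and 38.5 CPM with the svb RNAi label, 29.9, 27.2 and 18.7 CPM in SvbACT, 36.3, 46.5 and 45.9 CPM in SvbREP and 50.0, 41.2 and 51.8 CPM in control. All 3 SvbACT libraries were below every other library. Sod2 fell by 0.92 on the log2 scale in SvbACT against control (SE 0.199, edgeR adjusted p = 0.00738), or 47.2%, a call kept under all 19 alternatives.

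Sod2 was also lower in SvbACT than in SvbREP, at -0.77 on the log2 scale (SE 0.202, edgeR adjusted p = 0.0185). The adjusted p was 0.0868 without SvbACT replicate 3 and 0.0637 without SvbREP replicate 2. The test among all 4 groups gave 0.0106 for Sod2, and 0.0635 without SvbACT replicate 3, the library with the lowest value. SvbREP and the libraries labelled svb RNAi gave -0.15 each against control (SE 0.196 and 0.194, edgeR adjusted p = 0.752 and 0.670). SvbACT against svb RNAi was at -0.77 (edgeR adjusted p = 0.0133), and the adjusted p was 0.0768 without svb RNAi replicate 1 and 0.0761 without SvbACT replicate 3.

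Sod1 (FBgn0003462, chromosome 3L, 11112281 to 11113740, minus strand) was called in no comparison. Its values were 74.3, 59.2 and 63.8 CPM with the svb RNAi label, 56.4, 64.5 and 56.6 CPM in SvbACT, 64.8, 64.6 and 52.9 CPM in SvbREP and 67.3, 68.8 and 75.3 CPM in control. The SvbACT and the SvbREP libraries all lay below the control libraries, by margins of a few CPM. The log2 fold changes against control were -0.10 with the svb RNAi label, -0.25 in SvbACT and -0.22 in SvbREP, with standard errors of 0.136 to 0.138, and the smallest edgeR adjusted p was 0.330. There were 69.1, 66.2 and 60.3 Sod2 counts per 100 Sod1 counts with the svb RNAi label, 53.1, 42.1 and 33.1 in SvbACT, 56.0, 71.9 and 86.8 in SvbREP and 74.2, 59.9 and 68.8 in control, and the SvbACT values were again the lowest.

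Of the last 2 members, Cat and Trxr-1, Cat was called in 1 comparison and Trxr-1 in none. Cat (FBgn0000261, chromosome 3L, 18822604 to 18828188), the catalase that splits hydrogen peroxide to water and oxygen, was at 86.6, 118 and 85.8 CPM with the svb RNAi label, 132, 148 and 127 CPM in SvbACT, 138, 136 and 110 CPM in SvbREP and 112, 189 and 132 CPM in control. The svb RNAi libraries overlapped control, since svb RNAi replicate 2 exceeded control replicate 1. Cat fell by 0.57 in the libraries labelled svb RNAi (SE 0.180, edgeR adjusted p = 0.0337). The adjusted p was 0.171 without control replicate 2, where the log2 fold change was -0.34. It was 0.119, 0.131 and 0.0510 without svb RNAi replicate 1, svb RNAi replicate 3 or control replicate 3, and 0.125 with libraries scaled by their totals.

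The summed level of all 12 enterocyte markers was 353 to 448 CPM in the libraries labelled svb RNAi and 435, 823 and 686 CPM in control, with epsilonTry at 0 in the libraries labelled svb RNAi and near 0 in control. Most of that difference was Myo31DF, at a mean of 190 CPM with the svb RNAi label and 394 CPM in control. Jon99Ciii (7.29 and 38.0 CPM), Amy-p (26.3 and 49.6 CPM), Jon65Aiv, lab, Npc1b and Jon65Aiii also had lower means with that label. Mal-A1 (68.2 and 37.9 CPM) and betaTry (2.18 and 1.45 CPM) had higher means, and nub and alphaTry were nearly level. Of 11 enterocyte markers tested, 1 was called lower and 0 higher in that comparison (13.7% and 6.74% of all genes). Control replicate 2 had both the highest Cat and the highest enterocyte sum of its group, and the part of enterocyte RNA in the Cat difference was not tested. In SvbACT and SvbREP, Cat was at -0.09 and -0.17 against control (SE 0.179 and 0.180). SvbACT against svb RNAi gave 0.48 (edgeR adjusted p = 0.0813), and an adjusted p of 0.00952 once replicate number entered as a block. The adjusted p was 0.0294 with only the 2 groups fitted, 0.0305 without svb RNAi replicate 2 and 0.0265 without control replicate 2. No other alternative called Cat there.

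Trxr-1 (FBgn0020653, chromosome X, 8242528 to 8248033, plus strand) encodes a thioredoxin reductase, and the thioredoxin system in flies also keeps glutathione reduced in place of a glutathione reductase. It was at 181, 219 and 188 CPM with the svb RNAi label, 202, 261 and 181 CPM in SvbACT, 262, 251 and 222 CPM in SvbREP and 176, 269 and 182 CPM in control. No comparison called it, and the smallest edgeR adjusted p, for SvbREP against svb RNAi, was 0.193 (log2 fold change 0.32, SE 0.168), although those libraries did not overlap. Cat and Trxr-1 were each highest in replicate 2 among the libraries labelled svb RNAi, among the SvbACT libraries and among control. In SvbREP both enzymes were highest in replicate 1. maf-S was lowest in replicate 2 in all 4 groups, in SvbREP by a narrow margin. The annotated exons of Trxr-1 share 435 bp with those of sni on the other strand, which held 859 counts over all libraries against 12828 for Trxr-1. The strand setting of the counting is not given in the sources used here, so a small part of either gene's counts is uncertain. Those of cnc share 63 bp with Irk1, which held 8 counts in all.

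For levels per length, annotated exons were merged over all isoforms, to 9178 bp for cnc and 735 bp for Sod1. Such merging lowers the value of a gene whose expressed isoforms are shorter. On that scale, Sod1 was the most abundant member in control at 95.9 ± 5.74 CPM per kilobase (SD, n = 3). Cat followed at 72.4 ± 20.0, Gclc at 70.3 ± 2.20, cnc at 67.3 ± 3.84 and Trxr-1 at 66.4 ± 16.6. Neighbours among these 4 differed by less than the larger of their SDs. Levels were lower for maf-S at 52.9 ± 15.8, Sod2 at 47.0 ± 5.58 and Gclm at 26.7 ± 6.21, and lowest for Keap1 at 5.20 ± 1.70. In SvbACT, Gclc was at 44.2 ± 4.63, Sod2 at 24.9 ± 5.74 and Gclm at 15.7 ± 0.271 CPM per kilobase (SD, n = 3 each).

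Further redox genes were taken from 7 lists of 89 gene names, through which 59 genes were tested. Against control, 3 of the 59 were higher and 15 lower with the svb RNAi label (6.74% and 13.7% of all genes tested). In SvbACT 4 were higher and 4 lower (3.92% and 5.23% of all genes), and in SvbREP 0 were higher and 1 lower (1.35% and 2.7%). Between SvbACT and SvbREP, 4 were higher and 6 lower in SvbACT (6.51% and 6.63%). The lists' medians against control were -0.16, -0.03 and -0.05.

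Of 7 tested superoxide and metal genes, 4 were lower with the svb RNAi label and 0 higher (13.7% of all genes were lower), 1 was lower in SvbACT (5.23%), and 0 were called in SvbREP. Fer1HCH and Fer2LCH, the heavy and light chains of the iron store ferritin, were at 186, 237 and 210 CPM and at 186, 216 and 178 CPM in the libraries labelled svb RNAi, against 345, 344 and 338 CPM and 324, 332 and 351 CPM in control. The groups were far apart for both. Fer1HCH fell by 0.70 on the log2 scale (SE 0.105, edgeR adjusted p = 0.000150) and Fer2LCH by 0.80 (SE 0.118, edgeR adjusted p = 0.000122). MtnA, a metallothionein that binds copper, had 2, 10 and 3 counts with the svb RNAi label, 19, 12 and 26 in SvbACT, 35, 56 and 176 in SvbREP and 200, 104 and 238 in control. It fell with the svb RNAi label (edgeR adjusted p = 4.22e-06) and in SvbACT (log2 fold change -3.03, SE 0.448, edgeR adjusted p = 0.000341). MTF-1, the metal-responsive transcription factor, fell by 0.52 in the libraries labelled svb RNAi (edgeR adjusted p = 0.0150), and its adjusted p was 0.0545 without svb RNAi replicate 1 0.0650 without replicate 2 and 0.0553 with libraries scaled by their totals. MtnA was lower in SvbACT than in SvbREP (log2 fold change -2.36, edgeR adjusted p = 0.00206).

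Among 23 tested glutathione S-transferases, enzymes that couple glutathione to reactive compounds, 2 were higher and 6 lower with the svb RNAi label (20.4% of all genes called), 2 were higher and 2 lower in SvbACT (9.15%), and 0 were higher and 1 lower in SvbREP (4.05%, a share close to that of the list). GstD1, a widely used reporter of Cnc activity, was at 260, 230 and 252 CPM with the svb RNAi label, 310, 363 and 297 CPM in SvbACT, 219, 208 and 214 CPM in SvbREP and 178, 171 and 170 CPM in control. Every library of the 3 transgene groups lay above control, but GstD1 was not called in SvbREP against control. GstD1 rose by 0.52 with the svb RNAi label (SE 0.102, edgeR adjusted p = 0.00160) and by 0.90 in SvbACT (SE 0.102, edgeR adjusted p = 2.77e-05), and SvbACT exceeded SvbREP by 0.60 (edgeR adjusted p = 0.000827). GstD1 thus rose in SvbACT while Gclc, Gclm and Sod2 fell there.

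GstO3 fell by 1.46 with the svb RNAi label (edgeR adjusted p = 8.02e-05). Its fall of 0.85 in SvbACT (edgeR adjusted p = 0.0136) had an adjusted p of 0.0616 to 0.0746 without SvbACT replicate 1 or 3 or control replicate 3. GstO2 fell by 0.68 (edgeR adjusted p = 0.00237) and GstE11 by 1.57 (edgeR adjusted p = 0.00926) with the svb RNAi label. GstS1 averaged 126 CPM with the svb RNAi label, 46.6 in SvbACT, 85.1 in SvbREP and 83.6 in control. GstS1 was at -0.84 in SvbACT against control (edgeR adjusted p = 0.0118, and 0.0738 and 0.0626 without SvbACT replicate 1 or 3). It was at -0.86 in SvbACT against SvbREP (edgeR adjusted p = 0.00826; 0.0520 without SvbREP replicate 2). GstO3 was also lower in SvbACT than in SvbREP, at -0.81 (edgeR adjusted p = 0.0153), and 0.0526 to 0.0731 without SvbACT replicate 1 or 3 or SvbREP replicate 1 or 2.

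GstT4 separated the overexpressed forms, with 170, 123 and 247 counts in SvbACT, 3, 0 and 3 in SvbREP and 15, 58 and 35 in control. It was called between SvbACT and SvbREP (edgeR adjusted p = 4.86e-05), in SvbACT against control (log2 fold change 2.51, edgeR adjusted p = 0.00785) and in SvbREP against control (edgeR adjusted p = 0.0203). The last call was lost without SvbREP replicate 2 or 3 or control replicate 2 (adjusted p = 0.0920, 0.0552 and 0.0505) or with only SvbREP and control fitted (0.0638).

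**Figure D4:**
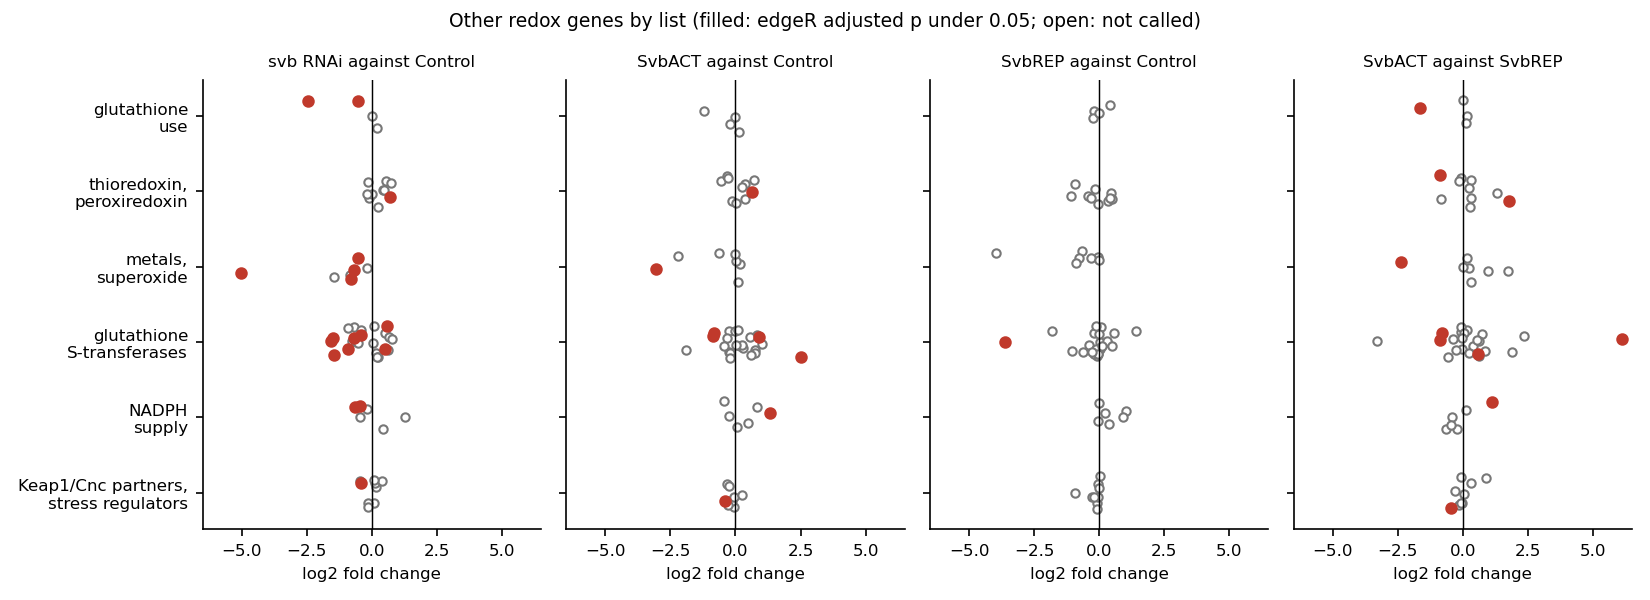
Log2 fold change, first group over second, of each tested gene of 6 further redox lists in 4 comparisons; a row is a list, with vertical jitter. Filled points have an edgeR adjusted p-value under 0.05. In the svb RNAi panel 15 of the 18 filled points lie below 0, and in the SvbREP panel 1 point is filled.

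For NADPH, the reducing power behind thioredoxin reductase, Idh stood out among 6 tested genes. Idh, the NADP-dependent isocitrate dehydrogenase, was at 80.7, 84.0 and 72.2 CPM with the svb RNAi label, 263, 291 and 267 CPM in SvbACT, 131, 132 and 118 CPM in SvbREP and 95.7, 134 and 97.8 CPM in control. It rose by 1.32 in SvbACT (SE 0.132, edgeR adjusted p = 8.31e-06) and SvbACT exceeded SvbREP by 1.11 (edgeR adjusted p = 2.64e-05). With the svb RNAi label it fell by 0.47 (edgeR adjusted p = 0.0192), a call lost without svb RNAi replicate 3 or control replicate 2 (adjusted p = 0.0838 and 0.0855), with scaling by totals (0.115) or with only svb RNAi and control fitted (0.0646). Men-b, a malic enzyme, fell by 0.66 with the svb RNAi label (edgeR adjusted p = 0.00973).

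Of 10 tested thioredoxin and peroxiredoxin genes, 1 was higher with the svb RNAi label and in SvbACT, and none was lower (6.74% and 3.92% of all genes were higher). It was Jafrac1, a cytosolic peroxiredoxin, at 0.71 with the svb RNAi label (SE 0.166, edgeR adjusted p = 0.00562) and 0.65 in SvbACT (SE 0.166, edgeR adjusted p = 0.0214). The SvbACT call was lost without SvbACT replicate 1, control replicate 2 or control replicate 3 (adjusted p = 0.116, 0.0645 and 0.116). Between SvbACT and SvbREP, the mitochondrial peroxiredoxin Prx3 was at -0.89 (edgeR adjusted p = 0.0218) and CG6762, annotated as sulfiredoxin Srx, at 1.77 (edgeR adjusted p = 0.0198). Leaving out SvbACT replicate 1 or 3 or SvbREP replicate 1 or 3 gave an adjusted p of 0.0719 to 0.0894 for Prx3. For CG6762 it was 0.0607 to 0.0837 without SvbACT replicate 1 or 2 or SvbREP replicate 1 or 2, and 0.0551 with only SvbACT and SvbREP fitted. The log2 fold change reached 2.90.

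Among 4 tested genes of the glutathione list, se and PHGPx were lower with the svb RNAi label, by 2.44 (edgeR adjusted p = 0.00100) and by 0.54 (edgeR adjusted p = 0.0230), where 13.7% of all genes were lower. PHGPx is placed in that list by its name, and its use of glutathione was not examined. The PHGPx call had an adjusted p of 0.0654 to 0.0787 without svb RNAi replicate 1 or 3 or control replicate 3, and 0.0925 with scaling by totals. In SvbACT against SvbREP, se was at -1.65 (edgeR adjusted p = 0.0167), and 0.0579 to 0.0729 without SvbACT replicate 1 or SvbREP replicate 1 or 2. The partners of Keap1 and Cnc and other stress regulators gave 1 call of 9 in each of the svb RNAi and SvbACT comparisons and in SvbACT against SvbREP, always ref(2)P, where 20.4%, 9.15% and 13.1% of all genes were called.

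ref(2)P, the fly p62, an autophagy receptor, was at 196, 198 and 190 CPM with the svb RNAi label, 194, 197 and 186 CPM in SvbACT, 292, 282 and 227 CPM in SvbREP and 245, 271 and 256 CPM in control. It fell by 0.40 (edgeR adjusted p = 0.0121) and by 0.42 (edgeR adjusted p = 0.0201) against control, and was lower in SvbACT than in SvbREP by 0.47 (edgeR adjusted p = 0.00783). The call in SvbACT against control was lost without SvbACT replicate 1 or 3 or control replicate 2 or 3 (adjusted p = 0.0593 to 0.0733), and that with the svb RNAi label under scaling by totals (0.101). No test could be made for the list of enzymes that produce reactive oxygen species, because no gene of it passed the filter.

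For the 4 members that differed among the groups, the most similar genes over the 12 libraries were found by Pearson correlation of log2 CPM, which the groups themselves shape. The nearest to cnc were CG34376, CHKov1 and brat (r = 0.98, 0.96 and 0.96, and 0.74, 0.59 and 0.87 with group means removed). CG34376, for example, averaged 145 ± 11.4 CPM with the svb RNAi label, 303 ± 31.3 in SvbACT, 231 ± 5.20 in SvbREP and 310 ± 23.1 in control (SD, n = 3 each), the same order as cnc. For Gclc they were CG6912, asRNA:CR45600 and CG3984 (r = 0.97, 0.94 and 0.93), which were near 0 in both overexpressing groups. With group means removed, these r values were 0.61, -0.28 and 0.04, so for asRNA:CR45600 and CG3984 the likeness lay between the groups. CG6912 averaged 1.82 CPM in SvbACT, 2.72 in SvbREP and 133 in control.

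Those most like Gclm were Piezo, which encodes a mechanosensitive ion channel, nahoda and olf413 (r = 0.93, 0.92 and 0.91, and 0.85, 0.53 and 0.33 with group means removed). Piezo averaged 178 ± 20.5 CPM with the svb RNAi label, 92.1 ± 10.1 in SvbACT, 419 ± 45.6 in SvbREP and 204 ± 40.1 in control (SD, n = 3 each). Sod2 was most similar to ATPsynE, roh and ogre (r = 0.93, 0.91 and 0.91, and 0.75, 0.62 and 0.60 with group means removed). ATPsynE, a subunit of the mitochondrial ATP synthase, averaged 59.3 ± 5.20 CPM with the svb RNAi label, 34.7 ± 7.96 in SvbACT, 54.0 ± 9.79 in SvbREP and 64.5 ± 7.12 in control (SD, n = 3 each), lowest in SvbACT as Sod2 was.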

How the data were processed

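Whole-number counts per gene for 12 libraries were deposited by the authors with no normalization, in a table of 8802 genes that also holds their own log2 fold changes, unadjusted p-values and calls coded as a score by the authors. Per the submitters' processing notes, the tools were FastQC 0.11.5, STAR 2.5.2b, HTSeq 0.6.0 and edgeR, with build dm6. Strand setting, annotation and the choice of genes are not given in the sources used here.

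All 12 libraries were fitted in 1 model with a mean per group in edgeR 4.0.16 (R 4.3.3) and tested by quasi-likelihood, with TMM factors. The filterByExpr step (minimum count 10, minimum total 15) kept 7992 genes. Benjamini-Hochberg adjustment ran over all of them, and genes under 0.05 were called. The fit was tested on simulated data. The standard error was taken as the size of the log2 fold change over the root of its F value. Log2 CPM for correlations used a prior count of 2. Per the labels each group has 3 biological replicates made on different days, and p-values measure the spread between these libraries. A count of 3 corresponds to 0.456 to 1.01 CPM across the 12 libraries.

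Replicate numbers come from the titles. Deviations of same-numbered libraries correlated above 0.1 in every pair for SvbACT against control, SvbREP and svb RNAi, and not for the other comparisons. The members, lists and tests were chosen with earlier results of these data known. All 9 members are named. Of each list the called genes are named, at most the 4 of smallest p per comparison, and for each member that differed among groups its 3 most correlated genes. Contrasts of SvbACT and SvbREP with svb RNAi were added after the data were seen. Coordinates and exon lengths are from the Ensembl annotation of BDGP6.54, not from the deposited table.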

Additional observations from a re-analysis of the deposited data

How the results depend on the processing

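Of 1026 recomputed log2 fold changes of the 9 genes, 963 kept their direction and their side of the threshold, 21 lost a call, 12 gained one and 30 changed sign. Scaling by library totals alone, and fitting only svb RNAi and control, each left 1 member called in place of 2 in that comparison, since Cat was lost, and the range was 1 to 2 when single libraries were left out. For SvbACT against SvbREP that range was 1 to 2 members. Genes called in SvbREP against control numbered 324, but 663 with the replicate number as a block, 545 with DESeq2, and 172 to 460 without single libraries. In SvbACT against control they were 731, and 460 to 769 without single libraries. The cause of these shifts was not tested.

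Under library totals, svb RNAi against control gave 0.0384 for Keap1, 0.0272 for Gclc, 0.0277 for Sod1 and 0.0353 for Trxr-1, and SvbREP against svb RNAi gave -0.08 for Sod2. Sign changes on leaving out 1 library were confined to uncalled differences. In svb RNAi against control the ranges were -0.34 to 0.11 for Keap1, -0.17 to 0.20 for maf-S and -0.22 to 0.12 for Trxr-1. In SvbACT against control they were -0.12 to 0.0469 for cnc, -0.24 to 0.15 for Cat and -0.13 to 0.26 for Trxr-1. In SvbREP against control they were -0.41 to 0.0438 for Keap1 and -0.33 to 0.0713 for Cat. Between SvbACT and SvbREP they were -0.10 to 0.0357 for Gclc, -0.13 to 0.0053 for Sod1 and -0.0157 to 0.14 for Cat. Against svb RNAi, SvbACT gave -0.026 to 0.25 for Trxr-1, and SvbREP gave -0.28 to 0.0723 for Keap1 and -0.0619 to 0.16 for Sod2.

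For SvbACT against control, SvbREP and svb RNAi, every same-numbered pair correlated above 0.1. There the block changed no other member's call than those of maf-S and Cat in SvbACT against svb RNAi. In the other comparisons some pairs fell below that cut (deviations correlated at -0.081 to 0.246 for SvbREP against control). Among these, the block added Cat and Trxr-1 in SvbREP against svb RNAi (edgeR adjusted p = 0.0257 and 0.0387). The cut did not split the comparisons cleanly, with mean correlations of 0.144 for svb RNAi against control and 0.143 for SvbACT against SvbREP. The common coefficient of variation between replicates was 22.9% without the block and 18.1% with it. Whether same-numbered libraries shared a batch was not tested. With the block, Cat and maf-S also passed the test among the 4 groups (adjusted p = 0.0102 and 0.0433). Keap1 rests on 36 to 129 counts per library.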
